A study of Mus musculus with 8 samples.

Results

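The olfactory bulb-poor libraries are 4 of 8 RNA-seq libraries from mouse brain that held little RNA of Omp, Eomes and Cdhr1. The other 4, the bulb-containing libraries, held 5.59 to 21.3 times as much. The classes were chosen by the measured values of these 3 genes in these same libraries. Every gene of the class comparison was measured in the libraries that chose the classes, so the class difference is given as a description with no test. The bulb-poor libraries were CAA mock 1, CAA mock 2, CAA stress 1 and WT mock 1. The bulb-containing libraries were CAA stress 2, WT stress 1, WT stress 2 and WT mock 2.

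The study set mice labelled CAA, for cerebral amyloid angiopathy, against wild-type (WT) mice. In this disease brain vessels accumulate amyloid-beta in their walls. Mice of both kinds underwent chronic restraint stress or a mock treatment, which gave the groups CAA stress, CAA mock, WT stress and WT mock with 2 libraries each. All animals had been perfused with PBS, and RNA was extracted from brain. The allele or strain behind CAA, the age and sex of the animals, and the region of brain in each extract are not stated by the labels. Nothing states that the libraries came from separate animals. In WT mock and CAA stress, the 2 libraries differed in sex-linked RNA, as given below, so they were not from the same animal. In WT stress and CAA mock the spread may be technical. The p-values cover the spread between these samples alone.

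The olfactory bulb is the most rostral part of the mouse forebrain and the first relay of smell. Olfactory sensory neurons of the nose send their axons into its glomeruli, where mitral and tufted cells receive the input and pass it to the olfactory cortex. Granule and periglomerular interneurons inhibit these output cells, and new interneurons reach the bulb throughout life as neuroblasts that migrate along the rostral migratory stream. The bulb is attached to the rest of the brain by a thin stalk. In bulk RNA, fewer cells of a type and less RNA per cell cannot be told apart.

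The libraries held 17275201 to 18894657 counts, the mitochondrial genome took 6.10% to 9.99% of them, and TMM scaling factors lay between 0.979 and 1.04. Xist, the RNA of the inactive X chromosome in females, had 4575 counts in WT mock 1 and 3340 in CAA stress 1, and 0 to 24 counts in the other libraries. Both libraries with Xist were bulb-poor, and the 4 bulb-containing libraries all had RNA of Y-linked genes. The class was uneven over the study groups: 3 of 4 CAA and 1 of 4 WT libraries were bulb-poor, as were 1 of 4 stress and 3 of 4 mock libraries. In WT mock and CAA stress, the 2 groups that hold both classes, the bulb-poor library carried Xist and the bulb-containing library did not. Among libraries without Xist, the bulb-poor ones were exactly the 2 of CAA mock. The class therefore cannot be told apart from sex within a group, or from CAA mock among males. WT mock 1 and CAA mock 2, both bulb-poor, also stood apart from the other 6 libraries in striatal RNA, as described under the forebrain lists.

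Values are CPM, read counts scaled to library size by TMM, and fold changes are those of bulb-poor over bulb-containing libraries. Omp encodes the olfactory marker protein of mature olfactory sensory neurons. It had 0.161 CPM in WT mock 1, 0.350 in CAA mock 1, 0.338 in CAA mock 2 and 0.818 in CAA stress 1 among the bulb-poor libraries, against 6.90 in WT mock 2, 11.4 in WT stress 1, 10.9 in WT stress 2 and 6.27 in CAA stress 2 among the bulb-containing ones. The bulb-poor library nearest to the others in Omp was CAA stress 1, with 15 counts, and the bulb-containing library nearest to it was CAA stress 2, with 117 counts. Eomes encodes a T-box transcription factor of mitral and tufted cells. Its CPM was 0.323, 0.759, 0.507 and 0.818 in the bulb-poor libraries in that order, against 7.47, 6.68, 6.72 and 8.14 in the bulb-containing ones. Cdhr1 encodes a protocadherin of mitral and tufted cells, and of photoreceptors in the retina. It lay at 4.41, 6.83, 5.75 and 8.83 CPM in the bulb-poor libraries, against 36.9, 41.9, 37.3 and 28.2 CPM in the bulb-containing ones. The log2 fold changes were -4.39 for Omp, -3.58 for Eomes and -2.48 for Cdhr1.

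None of the 3 genes was at 0 in a bulb-poor library. Relative to the mean of the bulb-containing libraries, the bulb-poor libraries held 1.82% to 9.22% of Omp, 4.45% to 11.3% of Eomes and 12.2% to 24.5% of Cdhr1. WT mock 1 was lowest and CAA stress 1 highest in all 3. Within groups that hold both classes, the log2 difference of Omp was -5.20 between WT mock 1 and WT mock 2, and -2.90 between CAA stress 1 and CAA stress 2. That of Cdhr1 was -3.06 in WT mock and -1.67 in CAA stress.

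The promoters of Eomes and Cdhr1 are shown because both genes mark the same output neurons and were low in the same libraries. The sequences are those of RefSeq on GRCm38.p6, 300 bases around the start of each gene, given 5′ to 3′ on the strand of the gene. Eomes is at chr9:118477939-118478238 on the plus strand and Cdhr1 at chr14:37098298-37098597 on the minus strand. Capitals mark TAATTG on either strand, a core to which homeodomain factors such as those of the Dlx and Lhx families bind.
Eomes: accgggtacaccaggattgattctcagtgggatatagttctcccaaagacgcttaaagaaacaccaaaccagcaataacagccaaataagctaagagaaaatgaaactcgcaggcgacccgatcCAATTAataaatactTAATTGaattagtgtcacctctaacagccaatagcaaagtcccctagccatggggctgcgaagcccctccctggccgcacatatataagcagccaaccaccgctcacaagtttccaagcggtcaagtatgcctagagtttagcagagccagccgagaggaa
Cdhr1: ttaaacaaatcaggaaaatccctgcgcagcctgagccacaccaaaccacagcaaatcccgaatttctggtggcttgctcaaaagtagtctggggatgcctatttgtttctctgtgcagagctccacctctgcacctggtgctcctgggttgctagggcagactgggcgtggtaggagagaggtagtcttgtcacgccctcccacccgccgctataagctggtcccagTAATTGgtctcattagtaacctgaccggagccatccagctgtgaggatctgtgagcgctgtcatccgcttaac
TAATTG occurred at 2 places in the Eomes window and at 1 in the Cdhr1 window, and in 8% of all 32851 promoter windows of the table. The 15 named genes lowest in bulb-poor libraries, described next, had 13 windows from 10 genes. Of these, 2 held TAATTG, the windows of Eomes and Cdhr1 printed above. The 15 named highest had 14 windows from 11 genes, of which 3 held it, from Barhl1 and Pax5. CCCNNGGG, a core bound by EBF factors, was in 2 of 13 windows of the lowest genes, those of Doc2g and Frmd7, in 2 of 14 of the highest, and in 13.7% of all. AGGTGTGA, a T-box core, was in 0 of 13 and 0 of 14, and in 1.28% of all. Both strands were searched, and a match is a description of letters, not a binding site.

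**Figure D1:**
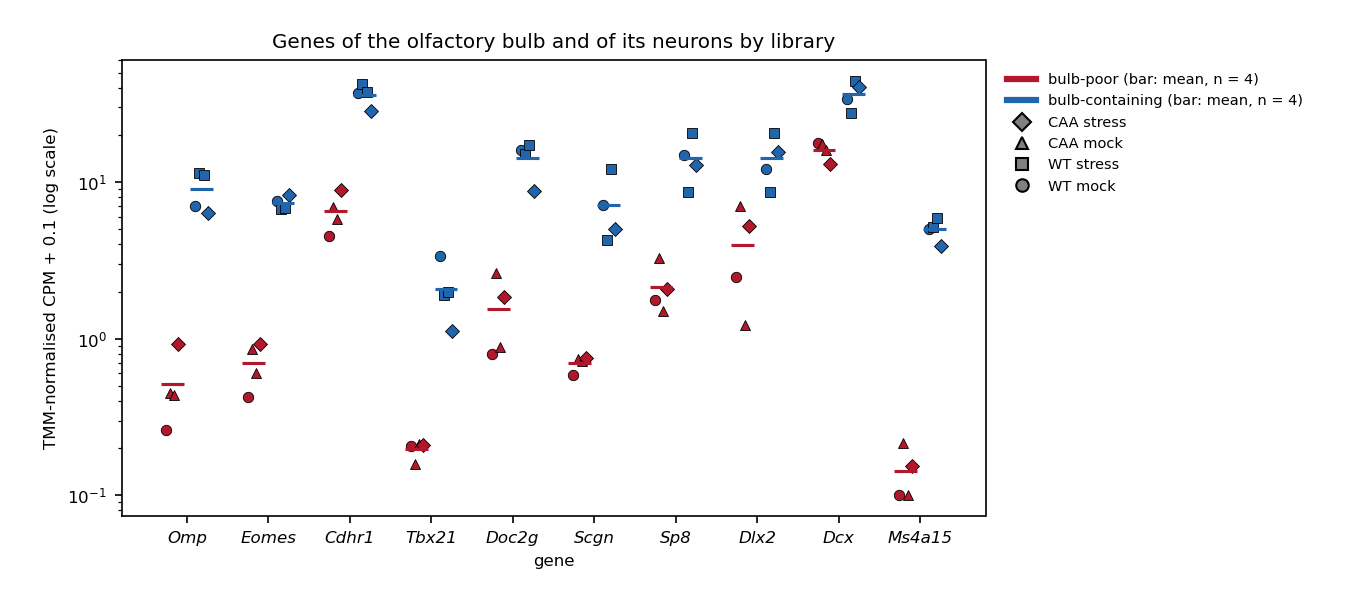
TMM-normalised CPM plus 0.1 on a log axis for 10 genes, with 1 point per library, bulb-poor libraries in red and bulb-containing ones in blue, and bars for the means of 4 libraries; point shapes give the study groups. The 10 genes were picked among those without overlap between the classes, so no bulb-poor library reaches a bulb-containing one in any of them. Omp lies at 0.161 to 0.818 CPM in bulb-poor and 6.27 to 11.4 CPM in bulb-containing libraries.

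Across the 17182 genes kept after the filter on low counts, the classes were described by whether their libraries overlapped. A gene was called when all 4 bulb-poor libraries lay below, or above, all 4 bulb-containing ones and the means differed at least 2-fold. By this rule 89 genes were lower (0.518%) and 84 were higher (0.489%) in the bulb-poor libraries. Without the fold, 479 genes were lower with no overlap (2.79%) and 557 were higher with no overlap (3.24%). The median log2 fold change of all genes was -0.01, with 8769 negative and 8413 positive. Leaving out a library asks less of a gene, and the count of lower genes was then 139 if WT mock 1 was left out, 150 for CAA mock 1, 154 for CAA stress 1 and 134 for CAA stress 2. It was 111 to 131 without each of the others. The count of higher genes was 136 if WT mock 1 was left out, 161 for CAA mock 1, 165 for WT stress 2 and 130 for CAA stress 2, and 87 to 121 without each of the others.

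**Figure D2:**
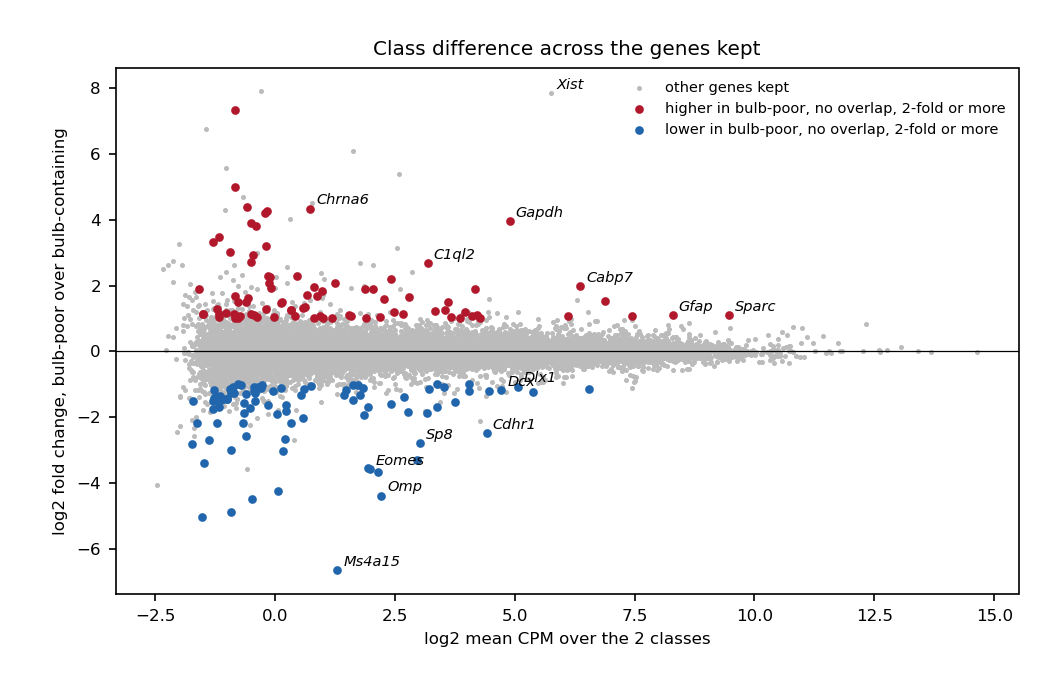
Log2 fold change of bulb-poor over bulb-containing libraries against log2 mean CPM for the 17182 genes kept. Red and blue points are the 84 higher and 89 lower genes with no overlap and at least a 2-fold difference; Ms4a15 lies lowest of the called genes at -6.65, and Omp at -4.39, while Xist, at 7.84, was not called because its classes overlap.

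Tbx21 and Doc2g, genes of mitral and tufted cells that did not choose the classes, lay low in the same libraries. Tbx21, another T-box factor of these cells, had 2, 1, 2 and 2 counts in the bulb-poor libraries, against 58, 33, 34 and 19 counts in the bulb-containing ones (log2 fold change -4.26). Doc2g, a member of the double C2 domain family, had 0.699, 2.51, 0.789 and 1.74 CPM in bulb-poor libraries, against 15.8, 14.9, 17.0 and 8.68 CPM in bulb-containing ones (-3.30). Both kept the classes apart, with WT mock 2 highest in Tbx21 and WT stress 2 in Doc2g. The list of 13 mitral and tufted cell genes includes Eomes and Cdhr1. Of the other 11 members 7 were negative and 4 positive, 2 were called lower, against 0.518% of all genes, and the median log2 fold change was -0.32. Without Eomes and Cdhr1 the list levels overlapped, at -0.31 to 0.06 in bulb-poor and -0.01 to 0.27 in bulb-containing libraries. The positive members were Lhx1 (1.95), Lhx5 (1.32), Uncx (1.89) and Slc17a6 (1.19), factors and a glutamate transporter that are also used in the diencephalon and hindbrain. Tbr1 and Reln, which cortical neurons express as well, lay at -0.31 and -0.39 with overlapping classes.

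Of the olfactory sensory neuron list, 14 of 16 genes were kept, 10 negative and 4 positive, with a median of -0.42. Besides Omp, only S100a5, a calcium-binding protein of these neurons, was called. It had 0, 1, 0 and 3 counts in bulb-poor libraries, against 17, 36, 33 and 15 counts in bulb-containing ones. Stoml3, a stomatin-like protein of olfactory cilia, had 0.269, 1.28, 0.507 and 0.382 CPM in bulb-poor libraries, against 1.07, 3.07, 3.03 and 1.23 CPM in bulb-containing ones, and CAA mock 1 overlapped. Only Omp and S100a5 had no overlap between the classes, and the 4 positive members reached up to 0.96. Gnal, the olfactory G protein that striatal neurons also use, lay at -0.40, Adcy3 at -0.06 and Ncam2 at 0.00. Of the members not kept, Cnga2 had 20 counts over the bulb-poor libraries and 15 over the bulb-containing ones. Rtp2 had 10 and 20. Of the 1407 olfactory receptor genes listed, 8 were kept, and the summed counts of all of them were 286 to 413 in bulb-poor libraries and 328 to 430 in bulb-containing ones, which overlap. Genes of the nasal lining itself were near 0: Cyp2g1 had 5 counts over the 4 bulb-poor libraries and 10 over the 4 bulb-containing ones, Obp1a had 0 in each class, and 2 of 12 listed genes were kept.

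Scgn and Sp8 were the periglomerular genes called lower in the bulb-poor libraries. Scgn, the calcium sensor secretagogin of periglomerular and other bulb interneurons, had 0.484, 0.642, 0.620 and 0.654 CPM in bulb-poor libraries, against 7.07, 4.16, 12.1 and 4.93 CPM in bulb-containing ones (log2 fold change -3.54). The bulb-poor libraries were close to each other, while the bulb-containing ones spread, with WT stress 2 highest. Sp8, a zinc-finger factor needed by bulb interneurons, had 1.67, 3.15, 1.41 and 1.96 CPM in bulb-poor libraries, against 14.9, 8.48, 20.3 and 12.8 CPM in bulb-containing ones (-2.78). Th, the rate-limiting enzyme of dopamine synthesis in periglomerular and midbrain neurons, had 1.34, 7.71, 12.9 and 12.9 CPM in bulb-poor libraries, against 15.1, 13.1, 16.6 and 14.7 CPM in bulb-containing ones. Its classes did not overlap, but CAA mock 2 and CAA stress 1 came close to WT stress 1. Of the 12 periglomerular genes 7 were negative and 5 positive, with a median of -0.11, so the list as a whole did not share the difference of Scgn and Sp8.

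All 15 genes of the granule cell and interneuron lineage list were negative, with a median of -0.93, and 8 had no overlap between the classes, against 2.79% of all genes lower with no overlap. The list level was lowest in WT mock 1 (-0.86) and CAA mock 2 (-0.97), the libraries that were also low in striatal RNA. It was -0.34 in CAA stress 1 and 0.03 in CAA mock 1, against 0.30 to 0.77 in bulb-containing libraries. The Dlx genes encode homeodomain factors of forebrain interneurons and of their precursors. Dlx2 had 2.37, 6.89, 1.13 and 5.12 CPM in bulb-poor libraries, against 11.96, 8.59, 20.6 and 15.5 CPM in bulb-containing ones (-1.87). Dlx5 had 1.24, 4.56, 1.30 and 3.60 CPM in bulb-poor libraries, against 7.75, 7.39, 7.55 and 9.54 CPM in bulb-containing ones (-1.59). Dlx1 had 19.96, 30.9, 14.1 and 21.3 CPM in bulb-poor libraries, against 50.5, 32.3, 50.7 and 47.9 CPM in bulb-containing ones (-1.07). In all 3, WT mock 1 and CAA mock 2 were the lowest libraries, and WT stress 1 was the lowest bulb-containing one. The GABA-synthesising enzymes Gad1 (-0.57) and Gad2 (-0.51) also parted the classes, without reaching 2-fold. Meis2, a homeodomain factor of the same lineage and of striatal neurons, lay at -0.93, also with no overlap.

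Dcx encodes doublecortin, a microtubule protein of migrating neuroblasts. It had 17.7, 17.3, 15.997 and 13.0 CPM in bulb-poor libraries, against 33.9, 27.4, 44.3 and 40.5 CPM in bulb-containing ones (-1.19), so that the bulb-poor libraries kept 35.7% to 48.5% of the bulb-containing mean. Of the 12 neuroblast genes 10 were negative and 2 positive, with a median of -0.31, and Dcx and Dlx2 were called. Of the cell cycle list 9 of 12 genes were kept, with a median of -0.54 and none called. Mki67, a proliferation marker, had 1.56, 2.39, 1.80 and 0.654 CPM in bulb-poor libraries, against 2.81, 2.57, 2.92 and 3.43 CPM in bulb-containing ones (-0.87). Of 10 genes of ensheathing glia, which wrap olfactory axons, 6 were negative and 4 positive, none was called, and the median was -0.15.

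Other genes lay as low as the chosen markers. Ms4a15, of the membrane-spanning 4A family, had 0, 2, 0 and 1 counts in bulb-poor libraries, against 87, 93, 105 and 71 counts in bulb-containing ones. The bulb-containing class held 117 times as much (95% counting interval 39.7 to 570, covering counting error only). Frmd7, a FERM-domain protein linked in humans to congenital nystagmus, had 0.430, 0.935, 0.845 and 0.382 CPM in bulb-poor libraries, against 8.36, 4.60, 11.6 and 8.46 CPM in bulb-containing ones (-3.66). Neither gene came near an overlap. Cpa6 (a carboxypeptidase), Trdn (triadin of the calcium-release complex), Klhl30 and Otop2 (a proton channel) completed the lowest named genes, at log2 fold changes of -3.04, -2.68, -2.59 and -2.17. Ccl7, a monocyte chemokine, was called with 0, 1, 1 and 0 counts in bulb-poor libraries, against 2, 58, 13 and 2 counts in bulb-containing ones. WT stress 1 held most of its reads, and with terms for genotype, stress and sex its class difference was 3.21, the other way. The genes most correlated with the mean of the 3 chosen markers over the 8 libraries were Ms4a15 (Pearson r = 0.991), Gcnt1 (0.983), Doc2g (0.977), Prss23 (0.972) and Slco5a1 (0.968), a description over libraries that were already parted by those markers.

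Of the other forebrain lists, the cortical, striatal and hypothalamic ones had levels that overlapped between the classes. Cortical excitatory genes had a median of -0.12, with 9 negative and 6 positive of 15, and Syt6, a synaptotagmin of deep-layer neurons, was the 1 called member (-1.25; 15.8, 31.8, 20.4 and 31.0 CPM in bulb-poor libraries, against 59.0, 48.2, 79.3 and 48.8 CPM in bulb-containing ones). All 13 striatal genes were negative, with a median of -0.77, but none was called. The dopamine receptor gene Drd1 had 3.87 CPM in WT mock 1, 28.9 in CAA mock 1, 6.87 in CAA mock 2 and 27.0 in CAA stress 1 among bulb-poor libraries, against 46.8, 50.2, 36.4 and 24.4 CPM in bulb-containing ones. The lowest bulb-poor libraries were WT mock 1 and CAA mock 2, whose mean centred striatal levels were -2.10 and -1.97, while CAA mock 1 (0.64) and CAA stress 1 (0.81) lay within the bulb-containing range of 0.0784 to 0.998.

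The hypothalamic list split the bulb-poor libraries in the same way, with levels of 1.19 in CAA mock 1, 1.37 in CAA stress 1, -1.84 in WT mock 1 and -1.14 in CAA mock 2, against -0.17 to 0.49 in bulb-containing libraries. Hcrt and Pmch, peptides of the lateral hypothalamus, showed a further difference. Hcrt had 1, 226, 2 and 200 counts in the bulb-poor libraries in the order used above, against 0, 0, 3 and 3 in the bulb-containing ones. Pmch had 2, 306, 7 and 525 counts in bulb-poor libraries, against 3, 9, 4 and 4 in bulb-containing ones. CAA mock 1 and CAA stress 1 alone held these peptides in quantity, whereas Avp, a peptide of the anterior hypothalamus, had 22.5 CPM in CAA mock 1 and 46.1 in CAA stress 1, against 7.22 to 91.1 CPM in the bulb-containing libraries.

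**Figure D3:**
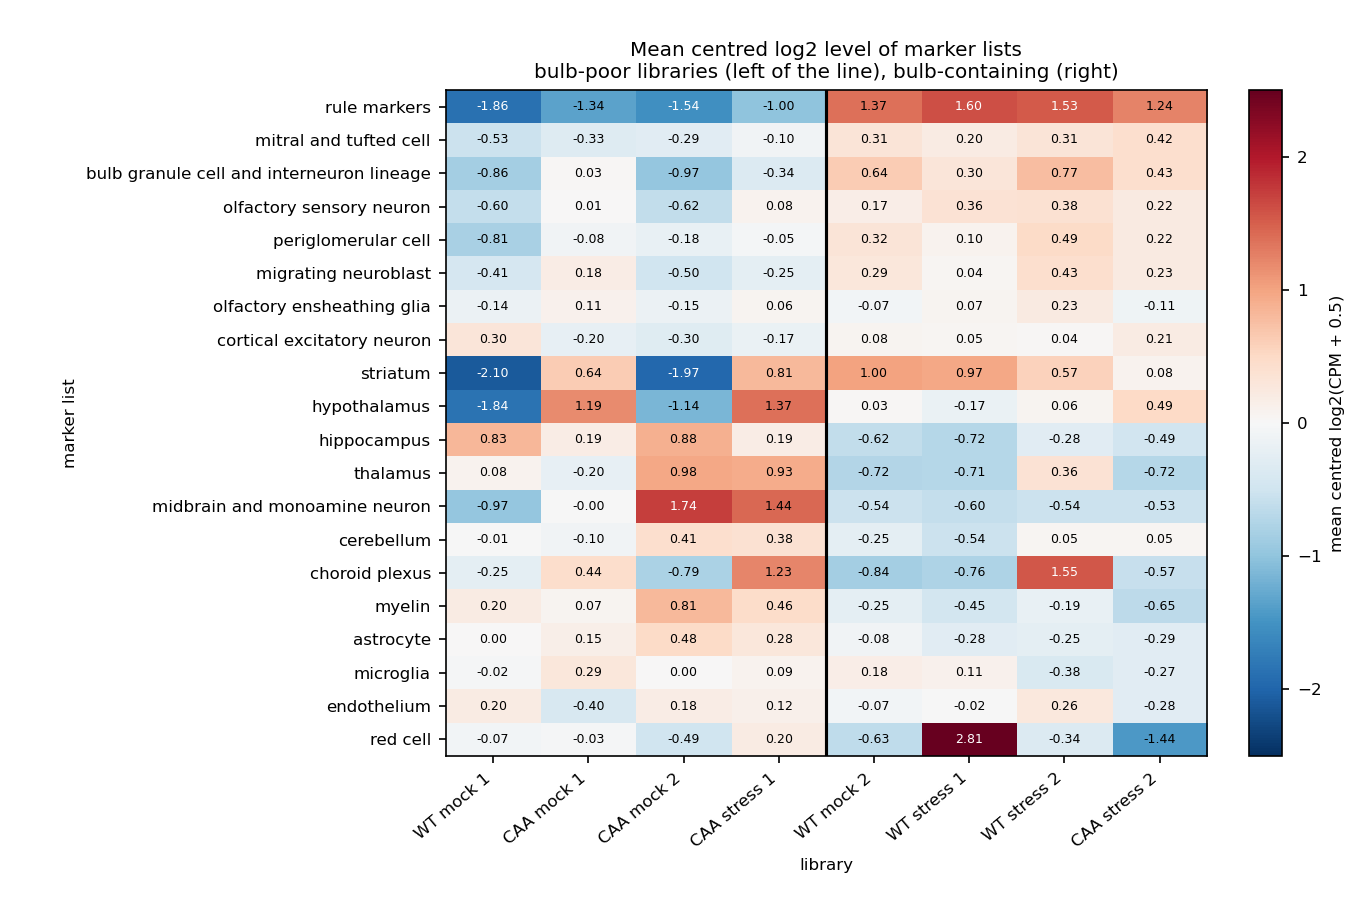
Mean centred log2 level, log2(CPM + 0.5), of 20 marker lists in each library, with the bulb-poor libraries left of the line and the bulb-containing ones right of it. In the granule lineage list each library on the left is lower than any on the right. In the hippocampus, myelin and astrocyte lists each is higher. CAA mock 1 is near the mean of all libraries in the granule (0.03) and myelin (0.07) lists, and WT mock 1 in the astrocyte list (0.001). The mitral and tufted cell list holds Eomes and Cdhr1 and the sensory neuron list Omp, which chose the classes, as did the rule markers in the top row. The striatum list is low in WT mock 1 (-2.10) and CAA mock 2 (-1.97) only.

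Hippocampal genes were higher in the bulb-poor libraries. Of 12 listed genes 10 were positive, with a median of 1.52, and the list levels did not overlap, at 0.19 to 0.88 in bulb-poor and -0.72 to -0.28 in bulb-containing libraries. C1ql2, a synapse organiser secreted by dentate granule cells, had 13.99, 9.70, 26.1 and 13.0 CPM in bulb-poor libraries, against 1.68, 0.438, 3.53 and 4.18 CPM in bulb-containing ones (log2 fold change 2.67). Cabp7, a neuronal calcium-binding protein, had 148, 91.5, 203 and 82.0 CPM in bulb-poor libraries, against 35.9, 32.95, 33.7 and 31.1 CPM in bulb-containing ones (1.97). The bulb-containing libraries were nearly level in Cabp7, and the bulb-poor ones spread by more than 2-fold. Prox1, the factor of dentate granule cells, lay at 1.21, with 13.96 CPM in CAA mock 1 just under 14.11 CPM in WT stress 2. C1ql2 and Cabp7 were among 3 called members, against 0.489% of all genes called higher.

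All 12 thalamic genes were positive, with a median of 0.94, but none was called. Lhx9, a LIM-homeodomain factor of the diencephalon, had 8.02, 4.32, 18.1 and 8.18 CPM in bulb-poor libraries, against 0.393, 1.15, 7.99 and 0.857 CPM in bulb-containing ones. Tcf7l2, a Wnt pathway factor of thalamic neurons, had 26.5, 16.1, 50.8 and 38 CPM in bulb-poor libraries, against 7.35, 6.29, 25.6 and 4.55 CPM in bulb-containing ones. WT stress 2 was the highest bulb-containing library in both. In both, CAA mock 1 was the lowest bulb-poor library and lay below WT stress 2. Ttr, the transthyretin of the choroid plexus, had 36.9, 160, 2.65 and 368 CPM in bulb-poor libraries, against 3.31, 8.92, 449 and 3.70 CPM in bulb-containing ones, so that each class held rich and poor libraries.

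Midbrain and hindbrain genes were among the highest of the called genes. Barhl1, a factor of hindbrain and subthalamic and mammillary neurons, had 32, 3, 40 and 18 counts in bulb-poor libraries, against 1, 0, 1 and 2 counts in bulb-containing ones. Chrna6, a nicotinic receptor subunit of dopamine neurons and the visual system, had 37, 8, 131 and 52 counts in bulb-poor libraries, against 0, 5, 2 and 4 counts in bulb-containing ones. Mab21l2, a gene of the dorsal midbrain, had 43, 6, 52 and 18 counts in bulb-poor libraries, against 0, 1, 2 and 3 counts in bulb-containing ones. CAA mock 1 was the lowest bulb-poor library in all 3 genes, and CAA mock 2 was the highest.

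Of the midbrain and monoamine list 9 of 12 genes were kept, 8 positive and 1 negative. The serotonin transporter Slc6a4 had 0.0538 CPM in WT mock 1, 0.0584 in CAA mock 1, 7.89 in CAA mock 2 and 5.18 in CAA stress 1, against 0 to 0.331 CPM in bulb-containing libraries. The dopamine transporter Slc6a3 had 0.0538, 8.59, 20.2 and 13.0 CPM in bulb-poor libraries, against 1.18, 1.31, 0.772 and 1.45 CPM in bulb-containing ones. Bulb-poor libraries thus did not share 1 set of caudal genes: WT mock 1 had neither transporter above the bulb-containing range, and CAA mock 1 had Slc6a3 without Slc6a4. Pax5 (log2 fold change 3.20), Lhx1os (3.80), C1ql4 (2.92), Sfrp5 (2.19) and Dao, the D-amino acid oxidase of hindbrain astrocytes (3.91), were further called genes; Lhx1os is antisense to and next to Lhx1, and without strand their reads may not be separate. Of the cerebellar list 11 of 15 genes were kept, with a median of 0.25, and of the brainstem list 5 of 14, with a median of 1.05 and Prph, an intermediate filament of peripheral and brainstem neurons, called higher (1.94). The defining cerebellar genes Pcp2 and Gabra6 had 5 and 15 counts over the bulb-poor libraries and 0 and 1 over the bulb-containing ones.

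**Figure D4:**
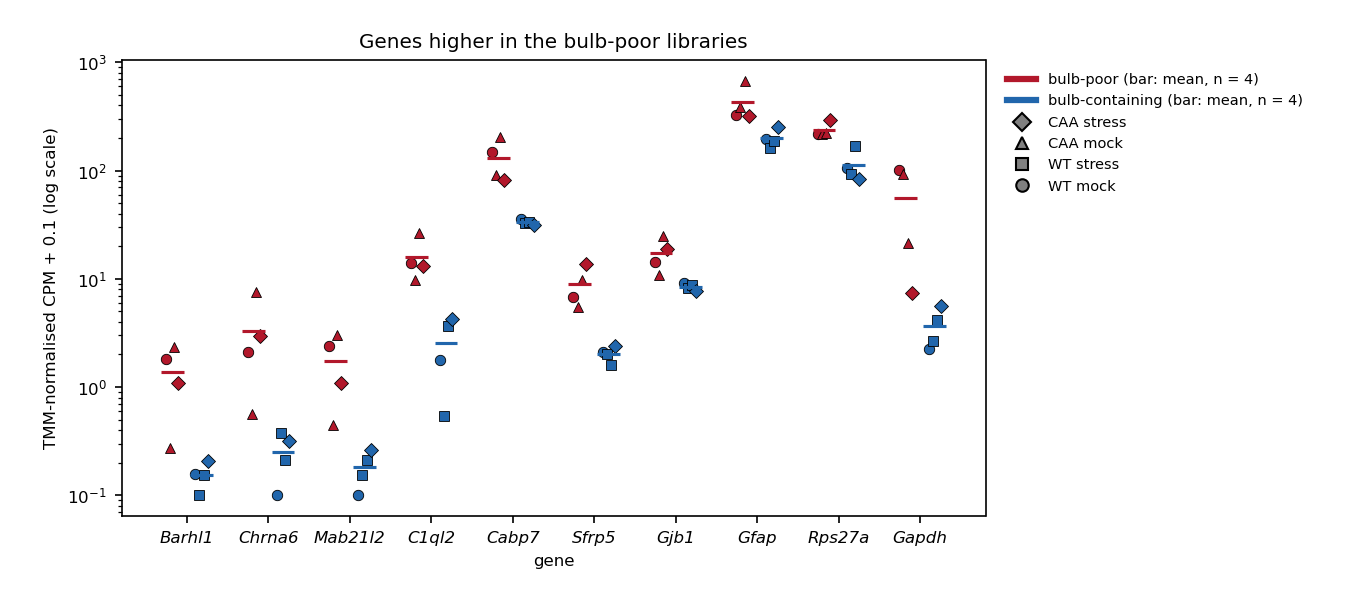
TMM-normalised CPM plus 0.1 on a log axis for 10 genes called higher in bulb-poor libraries, with 1 point per library and bars for the means of 4 libraries; red is bulb-poor and blue bulb-containing, and point shapes give the study groups. Cabp7 lies at 82.0 to 203 CPM in bulb-poor and 31.1 to 35.9 CPM in bulb-containing libraries, and Gapdh spreads from 7.31 to 102 CPM within the bulb-poor class.

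Glial genes lay higher in the bulb-poor libraries by smaller folds. All 15 myelin genes were positive, with a median of 0.78, and 12 of them had no overlap, against 3.24% of all genes higher with no overlap. Gjb1, connexin 32 of oligodendrocytes, was the 1 called member, with 14.3, 10.7, 24.6 and 18.9 CPM in bulb-poor libraries, against 9.04, 8.16, 8.71 and 7.55 CPM in bulb-containing ones (log2 fold change 1.03). CAA mock 2 was the highest library and no bulb-poor library reached down to a bulb-containing one. Oligodendrocyte precursor genes had a median of 0.20 with none called.

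Gfap, the astrocyte intermediate filament, had 323, 390, 676 and 317 CPM in bulb-poor libraries, against 197, 162, 189 and 251 CPM in bulb-containing ones (1.09). CAA stress 1 and WT mock 1 were the lowest bulb-poor libraries, and CAA stress 2 was the highest bulb-containing one. Of the 12 astrocyte genes 11 were positive, with a median of 0.40, and Agt, angiotensinogen of diencephalic and hindbrain astrocytes, lay at 1.57 with overlapping classes. Slc1a2 (0.00) and Slc1a3 (-0.13), the glutamate transporters of most astrocytes, did not part the classes. Microglial genes had a median of 0.18, amyloid-responsive microglial genes 0.37, endothelial genes 0.06 and mural cell genes -0.13, with none called in these 4 lists. Red cell genes had a median of -1.53, and Hba-a1, an alpha globin, had 2.08 to 6.49 CPM in bulb-poor libraries, against 45.6 CPM in WT stress 1 and 0.964 to 5.18 CPM in the other bulb-containing ones.

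A few called genes have near-identical copies that can share their reads, and whether they did was not tested. Gapdh, the glycolytic enzyme with many processed pseudogenes, had 102, 92.5, 21.5 and 7.31 CPM in bulb-poor libraries, against 2.13, 2.57, 4.02 and 5.52 CPM in bulb-containing ones (log2 fold change 3.97). The difference of Gapdh was 5.56 within WT mock and 0.40 within CAA stress. Gapdh itself had 38 to 1894 counts per library, and its pseudogenes Gapdh-ps14 and Gapdh-ps15 had 0 to 3. Pseudogenes of Gapdh under other symbols were not examined, so its level and fold are uncertain. Rps27a, a ribosomal protein fused to ubiquitin, had 215, 219, 222 and 291 CPM in bulb-poor libraries, against 106, 93.1, 169 and 82.8 CPM in bulb-containing ones (1.07), while the other 28 ribosomal protein genes lay between -0.015 and 0.41. Rps27a itself had 1545 to 5338 counts per library, and its pseudogene Rps27a-ps2 had 65 to 136. Srp54b, a signal recognition particle subunit, had 725, 541, 433 and 353 counts in bulb-poor libraries, against 101, 98, 206 and 152 counts in bulb-containing ones. Its copy Srp54c had 404, 399, 407 and 237 counts in bulb-poor libraries, against 711, 413, 447 and 312 counts in bulb-containing ones. Krt2, a keratin (4.26), Serpina3g, a serine protease inhibitor (2.29), Lefty1, a TGF-beta family antagonist (2.28), and Popdc3, of the Popeye domain family (2.26), were the other named genes higher in bulb-poor libraries.

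Because the classes were uneven over the study groups, the labelled comparisons were fitted with and without the class as a term, on all genes with edgeR's quasi-likelihood test. For CAA over WT, averaged over mock and stress, 2 genes passed an adjusted p of 0.05 without the class term (0.0116%) and 6 with it (0.0349%). Without the term, 5 genes passed when WT mock 2 was left out. Wdfy1, an adaptor of Toll-like receptor signalling, rose by the same amount in both fits, with log2 fold changes of 2.30 ± 0.18 with the class term (SE, edgeR adjusted p = 0.000295) and 2.30 ± 0.14 without it (edgeR adjusted p = 5.15e-05). Within the bulb-poor class Wdfy1 had 54.7 to 65.7 CPM in the 3 CAA libraries and 10.3 in the WT library, and within the bulb-containing class 47.3 in the CAA library and 9.87 to 12.5 in the 3 WT libraries. Ngef, also called ephexin, a guanine nucleotide exchange factor, fell by 2.14 on the log2 scale with the class term (SE 0.21, edgeR adjusted p = 0.00189) and by 2.20 without it (SE 0.17, edgeR adjusted p = 0.000444). It had 40.4 to 70.9 CPM in bulb-poor CAA libraries against 257 in the bulb-poor WT library, and 70.4 in the bulb-containing CAA library against 271 to 320 in the bulb-containing WT libraries. Ngef and Neu2, on opposite strands, overlap on chromosome 1, and with no statement on strand their shared reads cannot be told apart.

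The other 4 genes called with the class term were the Y-linked Ddx3y, Eif2s3y, Kdm5d and Uty. In that fit the class rests on the pairs within WT mock and CAA stress, each of an Xist library and a male one, so the fit moves Y-linked genes. Ddx3y, an RNA helicase, went to 6.53 ± 0.29 (SE) for CAA with the class term, against -0.24 ± 1.83 without it. Without an interaction between genotype and stress, 2 genes were called with the class term and 1, Wdfy1, with class and sex, where Ngef was at -2.04 (edgeR adjusted p = 0.139). For stress over mock, 0 genes passed without the class term (0%; 657 at an unadjusted p of 0.05, and 3 by DESeq2) and 5 passed with it (0.0291%), of which 4 were the same Y-linked genes. The remaining gene was Entpd4b, a nucleoside diphosphatase of the Entpd4 family, at 2.87 ± 0.39 with the class term (SE, edgeR adjusted p = 0.0355) and 2.497 ± 0.38 without it (edgeR adjusted p = 0.831). Without an interaction its adjusted p with the class term was 0.0781 by edgeR. DESeq2 called Entpd4b in both fits, with a DESeq2 adjusted p of 3.96e-06 with the class term and 2.78e-06 without it. The other genes that DESeq2 called for stress with the class term were Y-linked genes and Xist. For stress without the class term, 1 gene passed when WT mock 1 was left out and 4 when WT mock 2 was. Entpd4b is a close copy of Entpd4, so its reads are uncertain. Of 17182 genes tested, those at an unadjusted edgeR p of 0.05 numbered 638 with the class term and 1439 without it for CAA. For stress they numbered 284 and 657. With no effect at all, a share of 0.05 of the genes would pass. The fit with the class term had 3 residual degrees of freedom and the fit without it 4. The degrees of freedom borrowed from all genes were 8.46 with the term and 7.29 without it. For CAA the SEs of Wdfy1 and Ngef were larger with the term, and that of Gfap was slightly smaller (0.206 against 0.212). How much of the lower counts comes from a change in precision was not tested.

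In the CAA comparison the medians of several lists that differed between the classes were not the same with the class as a term, and not all of them lay nearer to 0 with it. The median of the 15 myelin genes was -0.04 with the class term (7 positive) and 0.44 without it (15 positive). The thalamic median was -0.06 with the term and 0.58 without it, and the hippocampal median was -0.25 with it and 0.22 without it. The granule lineage median was 0.19 with the term and -0.40 without it. The striatal median was 0.63 with the term, with 13 of 13 positive, and -0.30 without it, with 11 of 13 negative. The midbrain and monoamine median was 1.24 with it and 3.66 without it, with all 9 positive in both fits. The mitral and tufted cell median, which includes Eomes and Cdhr1, was 0.30 with the term and 0.13 without it. Oligodendrocyte precursor genes kept a median of 0.30 with the term, against 0.29 without it, and amyloid-responsive microglial genes 0.309 with it, against 0.285 without it. None of the list members named here passed the threshold over all genes in either fit.

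Gfap was 0.62 ± 0.21 for CAA with the class term (SE, edgeR adjusted p = 1) and 0.86 ± 0.21 without it (edgeR adjusted p = 0.508). DESeq2 called Gfap without the class term (adjusted p = 0.00502) and not with it (adjusted p = 0.857). In DESeq2, 18 genes passed for CAA with the class term and 46 without it, and 9 genes were in both sets, among them Wdfy1, Ngef and Thy1. Of the 18, 5 were Y-linked genes or Xist. For stress, the hippocampal median was -0.08 with it and -0.95 without it. How much of these shifts belongs to the bulb class, to sex or to the other regions that moved with the class was not tested.

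**Figure D5:**
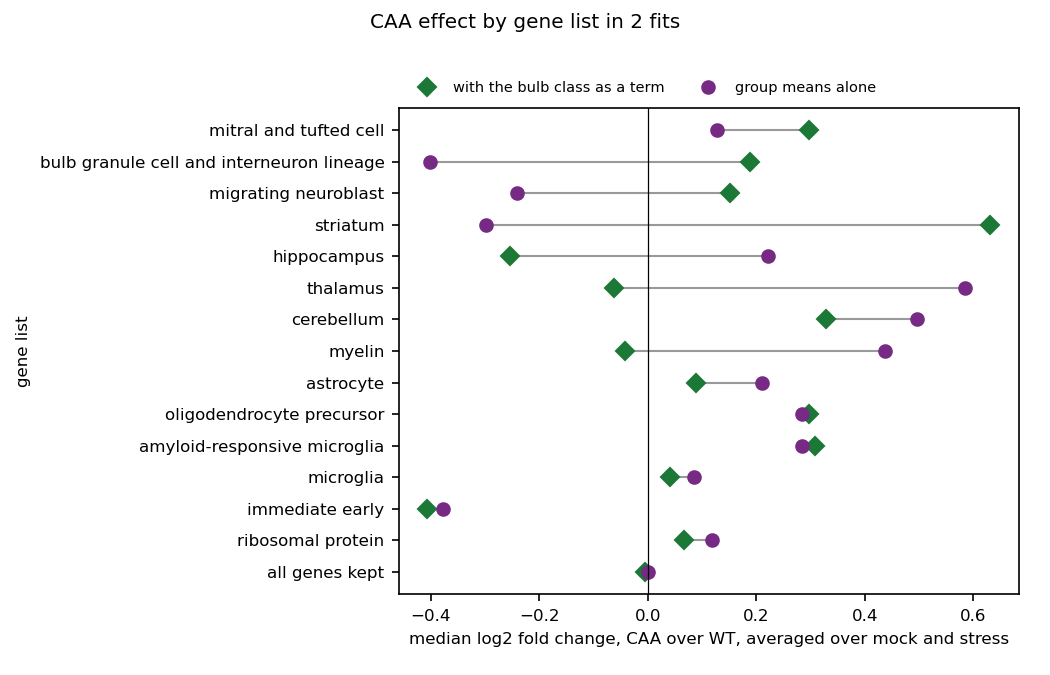
Median log2 fold change of CAA over WT, averaged over mock and stress, for 14 gene lists (the mitral and tufted cell list holds Eomes and Cdhr1, which chose the classes) and all genes kept, with the bulb class as a term (green diamonds) and from the group means alone (purple circles). The myelin median is -0.04 with the term and 0.44 without it, while the oligodendrocyte precursor median is 0.30 with it and 0.29 without it.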

How the data were processed

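The authors deposited a table of raw counts per gene for 54532 mouse genes in 8 libraries and a table of FPKM values derived from them; per the submitters' processing notes the tools were HISAT2 2.0.5 and featureCounts 1.5.0-p3 on the mm10 build. The labels do not state strandedness or the annotation used. Counts were analysed with edgeR 4.0.16 in R 4.3.3 (filterByExpr on the 4 groups with a minimum count of 10 and a minimum total of 15, TMM scaling, robust quasi-likelihood fit of the group means over all 8 libraries, two-sided p-values, Benjamini-Hochberg adjustment over 17182 genes). Class fold changes used a prior count of 0.125. Alternatives were DESeq2 1.42.0, its size factors inside edgeR, all genes with a count, log2(FPKM + 1), a replicate block, other terms and leaving out each library, and the test was checked on simulated counts. The simulated counts held no differences of sex or region, so they cannot check the fits where these are confounded with the class. Between any pair of libraries the chi-square of the counts was 8.70 to 73.9 times its degrees of freedom, so each counted as a sample.

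The named genes are Omp, Eomes and Cdhr1, the 15 lowest and 15 highest called genes with at least 1 CPM in the higher class and no clone-style symbol, up to 4 called members of each gene list or else the 2 of largest change, and every gene called in a study fit; some genes that the rule names are not reported here, and other list members were named after their values were seen. Classes, members and lists were chosen with earlier results of these data known. Coordinates are those of mm10, and promoter sequences are RefSeq's on GRCm38.p6.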

Additional observations from a re-analysis of the deposited data

Results flagged for a closer look

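In 180 sets of 4 values of 1 class, 11 had a library whose gap to the nearest other exceeded Dixon's 95% critical value; chance flags about 1 in 20 such sets. Among bulb-poor libraries, Tbx21 was 0.0584 CPM in CAA mock 1 (0.108 to 0.113 in the others), Olig1 was 218 CPM in WT mock 1 (316 to 331), Rps27a was 291 CPM in CAA stress 1 (215 to 222), and Wdfy1 was 10.3 CPM in WT mock 1, the only WT library of its class (54.7 to 65.7). Among bulb-containing libraries, Dlx1 was 32.3 CPM in WT stress 1 (47.9 to 50.7), and Xist was 1.35 CPM in WT mock 2 (0.107 to 0.220). CAA stress 2, the only CAA library of that class, stood apart in Cyp2f2 at 1.13 CPM (0 to 0.109), mt-Co3 at 100.1 CPM (226 to 234), Thy1 at 1034 CPM (434 to 466), Wdfy1 at 47.3 CPM (9.87 to 12.5) and Ngef at 70.4 CPM (271 to 320).

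In 2 region lists the class difference had opposite signs in the 2 groups that hold both classes, with at least 0.5 on the log2 scale in each. The mean striatal level of the bulb-poor minus the bulb-containing library was -3.10 in WT mock and 0.73 in CAA stress, and the hypothalamic level was -1.87 in WT mock and 0.88 in CAA stress. Other lists had opposite signs with a smaller difference in 1 group or both, such as midbrain and monoamine genes at -0.43 in WT mock and 1.97 in CAA stress, and cortical excitatory genes at 0.22 in WT mock and -0.38 in CAA stress. None of these differences was tested, with 1 library per class and group.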

How the results depend on the processing

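The class counts of 89 lower and 84 higher genes were again 89 and 84 with DESeq2's size factors and in the FPKM table. They were 186 lower and 164 higher with no filter on low counts, 239 and 188 without the libraries with Xist (2 bulb-poor against 4 bulb-containing), 175 and 218 at a fold of 1.5, and 479 and 557 with no overlap alone. Leaving out each library in turn gave 111 to 154 lower and 87 to 165 higher genes; fewer libraries ask less of the overlap rule by construction. With terms for genotype, stress and sex, added after seeing the data, Ccl7 reversed to 3.21. No other of the called genes named here changed sign under any alternative run, but sizes were less stable. With those terms 47 of the 90 named genes, called or not, moved by more than their SD within the classes. Called genes changed both ways, such as Trdn from -2.68 to -0.76 and Chrna6 from 4.34 to 6.64.

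For CAA, against 2 genes called, the count was 6 with the class term, 223 with no filter, 46 with DESeq2, 18 with DESeq2 and the class term, and 1 with genotype, stress, class and sex without interaction, where Ngef was -2.04 (edgeR adjusted p = 0.139); it was 2 to 5 without each library in turn. For stress, against 0, it was 5 with the class term, 49 with no filter, 3 with DESeq2, 6 with DESeq2 and the class term, and 0 to 4 without each library in turn (1 without WT mock 1 and 4 without WT mock 2). The cause was not tested. A replicate block gave 2 genes for CAA and 0 for stress and changed no call; replicate 1 minus 2 differences correlated between groups at -0.29 to 0.11, so the numbers are only shared names and the block is no pairing.

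Depth limits the lowest genes: Ms4a15, S100a5, Tbx21 and Ccl7 rest on 2 to 7 counts over the bulb-poor class, and their folds carry that error. Barhl1, Mab21l2 and Chrna6, among the highest genes, likewise rest on few counts in the bulb-containing class. The classes hold 4 libraries each, are confounded with sex and partly with group, and were chosen on measured values, so no class difference here has an independent check.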
